A study of Homo sapiens with 8 samples.

Results

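The comparison described here is that of MT-2 cells given a DNA demethylating agent and an EZH2 inhibitor together with MT-2 cells given neither. MT-2 is an established human T cell line that carries HTLV-1, the retrovirus that causes adult T cell leukaemia (ATL). OR21 is the demethylating agent, and EPZ-6438 (tazemetostat) blocks EZH2, the histone methyltransferase of the Polycomb complex PRC2. The treated culture received 100 nM OR21 and 500 nM EPZ-6438 for 96 h, with both compounds added at seeding and again at 48 h, and the untreated culture received 0 nM of each. Other MT-2 cultures received OR21 or EPZ-6438 alone at the same concentrations. The members are the 17709 transcript probe sets with a gene symbol, out of 21448 transcript probe sets on a 1-colour Affymetrix array, and they cover 17687 gene symbols. Each value is the deposited log2 signal of 1 array, and a difference is the level on the combination array minus the level on the untreated array, so that 1 log2 unit is a 2-fold difference.

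The study of 8 arrays also treated MT-1, a line derived from ATL, at higher concentrations of both compounds (500 nM and 2500 nM). Its design asked how the agents act together on gene expression. Each condition has 1 array, so no difference below has a replicate error or a p-value, and 1 culture of 1 line stands for each condition.

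Methyl groups on the cytosine of CpG dinucleotides in a promoter and trimethylation of lysine 27 on histone H3 are separate marks of silent genes. Maintenance methyltransferase DNMT1, guided by UHRF1, copies the first mark after replication, and EZH2 writes the second. In T cells infected with HTLV-1, both marks are known to lie on genes of tumour suppression, differentiation and immune recognition.

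Background was set, for each array, at the 95th percentile of its negative-control probe sets, which was 7.80 on the untreated array and 7.64 on the combination array. By that mark 7063 of the named probe sets (39.9%) stood above background untreated and 7452 (42.1%) with both agents. A difference is called measured where both levels stood above background. Where 1 did, the other level was put at the background of its array and the difference is a bound, given as "at least" on the higher side and as "or lower" on the lower side. A bound that came out with the opposite sign was dropped. Of the 13 T cell marker genes on the array, 6 were above background, so these markers alone do not establish the identity of the line. CD4, CD5, the interleukin-2 receptor chain IL2RA, CCR4, IRF4 and BATF3 were above background on both arrays, and CD2, CD3D, CD3E, CD3G, CD7, CD28 and FOXP3 on neither. Of the 22 markers of B, myeloid, NK and erythroid cells, endothelium and fibroblasts on the array, CD79A (7.54 untreated, 7.78 with both) and COL1A2 (7.42 and 8.12) passed background, on the combination array, and the others on neither array. KRT8 (7.95 and 7.69) was the 1 epithelial marker of 5 above background. In a wider list of 41 markers of other blood cells, 6 were above background on 1 or both arrays, among them BLK (11.09 untreated) and NKG7 (10.92 untreated). Bulk RNA does not tell fewer cells of a kind from less RNA per cell.

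With both agents, 657 named probe sets (3.71%) were higher by 1 or more and 234 (1.32%) lower, on the levels as deposited. Many of those levels lay under background. Counted as measured differences or bounds, 293 probe sets were higher by 1 or more (1.65% of 17709, and 3.83% of the 7655 above background on 1 or both arrays) and 130 were lower (0.734% and 1.7%). Counts in the gene lists below are to be read beside these shares. For list members above background the shares to compare are 3.83% and 1.7%. The higher side held 240 measured differences and 53 bounds, the lower side 121 and 9. The higher side also reached further, with 37 probe sets at 2 or more, 8 at 3 or more and 3 at 4 or more, against 2 at -2 or less and 0 at -3 or less. The median difference over all named probe sets was -0.02, with 5th and 95th percentiles of -0.72 and 0.88. Control probe sets give a sense of the scatter between these arrays. Among 2031 positive-control probe sets above background on both arrays, 47 (2.31%) differed by 1 or more in either direction, with an SD of 0.413. The 612 negative controls had an SD of 0.865, and 21.4% of them differed by 1 or more in either direction. Of the 20 negative controls above background on both arrays, 3 did so. A difference near 1 close to background is thus within the scatter of probes without a target. The plot of both arrays shows the higher genes spread from the bottom of the scale upward, and the lower genes lying close under the line of equal levels.

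**Figure D1:**
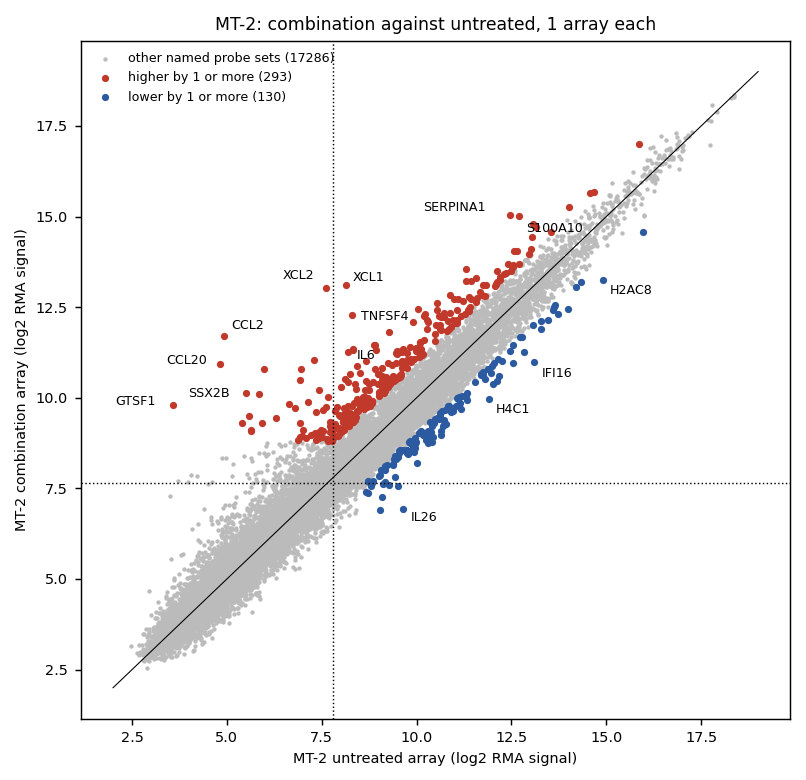
Level of each of the 17709 named probe sets on the untreated MT-2 array (x axis, log2 RMA signal) and on the combination array (y axis, log2 RMA signal). Red points are the 293 probe sets higher by 1 or more and blue points the 130 lower by 1 or more, as measured differences or bounds, dotted lines are the background of each array, and the diagonal marks equal levels. The chemokine genes XCL1, XCL2, CCL2 and CCL20 lie farthest above the diagonal among the labelled genes with GTSF1 and SSX2B. IL26 (-2.70) is the blue point with the lowest deposited difference.

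Chemokines, the secreted proteins that draw leukocytes, headed the comparison. Of 34 chemokine genes on the array, 12 stood above background, 8 were higher by 1 or more and 2 lower. The shares were 1.65% and 0.734% of all named probe sets, and 3.83% and 1.7% of those above background. XCL1 and XCL2 encode lymphotactins, which attract dendritic cells that carry the receptor XCR1. XCL1 stood at 8.14 untreated, 10.56 with OR21, 8.47 with EPZ-6438 and 13.11 with both, a difference of 4.97 (31.4-fold). XCL2 stood at 7.62, 10.21, 7.96 and 13.04 on the same arrays, a difference of at least 5.23 (at least 37.6-fold). Both were thus lowest untreated, close to that with EPZ-6438 alone, intermediate with OR21 and highest with both. These paralogs are nearly identical in sequence, so their probe sets may not tell them apart. CCL2, which attracts monocytes, stood at 4.93, 6.73, 5.70 and 11.70, and the combination array was the 1 array of the 4 on which it passed background (at least 3.89). CCL20, the ligand of CCR6, stood at 4.83, 9.56, 5.46 and 10.94 (at least 3.14), above background wherever OR21 was present and under it elsewhere.

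Members of the CCL3 family, inflammatory chemokines, followed another order. CCL3 stood at 13.15 untreated, 13.78 with OR21, 14.996 with EPZ-6438 and 14.70 with both (1.56), and CCL3L3 at 9.28, 10.26, 11.39 and 11.81 (2.53). For both, the array with EPZ-6438 alone lay above the one with OR21 alone, and CCL3 was highest there. They are near-identical copies, and either probe set may read both. CCL1, a ligand of CCR8, stood at 10.23, 11.45, 10.55 and 12.32 (2.09). CCL5 was at 7.74, 7.66, 8.71 and 9.14 (at least 1.34). Untreated it was under background, and it was above that of each treated array, with OR21 alone by little (7.66 against 7.56). The 2 lower members were CXCL10, the interferon-induced ligand of CXCR3, at 10.64, 9.04, 10.29 and 8.98 (-1.66), and CXCL13, which attracts B cells, at 13.26, 11.08, 13.22 and 12.12 (-1.15). Both were lower wherever OR21 was present.

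Of 21 chemokine receptors, 6 stood above background and 2 were higher by 1 or more, against 3.83% of all named probe sets above background. CCR6, the receptor of CCL20, stood at 8.33, 9.54, 9.38 and 11.36 (3.02), and ACKR3, a scavenging receptor for CXCL12, at 13.03, 13.88, 13.84 and 14.45 (1.42). Each single agent lay between the untreated and the combination level for both receptors. CXCR5, the receptor of CXCL13, passed background on the combination array at 8.75 (at least 0.95), and CCR4, CXCR4 and CCR7 differed by 0.16 to 0.33. XCR1, the receptor of the lymphotactins, was not above background (5.52 untreated, 6.18 with both).

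Cytokines gave fewer cases. Of 40 interleukin and cytokine genes, 9 were above background, 3 were higher by 1 or more and 1 lower. Over all named probe sets the shares were 1.65% and 0.734%, and over those above background 3.83% and 1.7%. IL6, an inflammatory cytokine, stood at 8.18, 10.88, 8.71 and 11.27 (3.09), with OR21 alone close to the combination. IL10, which dampens inflammation, stood at 13.07, 14.15, 14.14 and 14.79 (1.71), with both single agents about equal. IL13, a type 2 cytokine, stood at 5.64, 7.79, 5.82 and 9.08 (at least 1.27). It passed background with both agents and, by little, with OR21 alone (7.79 against 7.56). IL26 went the other way, at 9.64, 7.99, 9.64 and 6.94 (-2.004 or lower), with EPZ-6438 alone at the untreated level. Among 41 cytokine receptors, 22 of them above background, 1 was higher by 1 or more. That was IL6ST, the signalling chain gp130 shared by the IL-6 family, at 8.93, 10.54, 9.42 and 11.32 (2.39). The common gamma chain IL2RG differed by 0.94 and IL27RA by -0.74.

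The promoters of these genes are shown because OR21 is a demethylating agent and CpG dinucleotides are the sites of promoter methylation. The stretch is the 250 bases before the first listed transcription start, from RefSeq on GRCh38.p14, and 14250 of the 17687 symbols (80.6%) matched an entry. XCL1 and CCL2 had none. Capitals mark each CpG. The XCL2 stretch (chr1:168543998-168544247, minus strand) held 4 CpGs, the CCL20 stretch (chr2:227813592-227813841, plus strand) 3, the IL6 stretch (chr7:22726950-22727199, plus strand) 4 and that of TNFSF4 (chr1:173205533-173205782, minus strand), described next, 5. Across all matched genes the median was 18 CpGs, and 21 among those above background on either array. An NF-kappaB motif matched in the IL6 and CCL20 stretches and in 11.1% of all promoters of this length, on either strand.
XCL2: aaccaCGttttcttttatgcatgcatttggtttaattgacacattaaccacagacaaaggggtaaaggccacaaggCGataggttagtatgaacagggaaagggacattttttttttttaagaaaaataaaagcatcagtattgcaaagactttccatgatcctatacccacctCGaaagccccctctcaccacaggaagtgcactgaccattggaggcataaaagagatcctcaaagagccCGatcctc
CCL20: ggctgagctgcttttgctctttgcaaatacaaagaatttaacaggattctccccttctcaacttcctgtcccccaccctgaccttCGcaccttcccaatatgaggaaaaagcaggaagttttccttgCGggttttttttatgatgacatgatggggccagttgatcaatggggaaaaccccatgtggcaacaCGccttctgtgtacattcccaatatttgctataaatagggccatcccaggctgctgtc
IL6: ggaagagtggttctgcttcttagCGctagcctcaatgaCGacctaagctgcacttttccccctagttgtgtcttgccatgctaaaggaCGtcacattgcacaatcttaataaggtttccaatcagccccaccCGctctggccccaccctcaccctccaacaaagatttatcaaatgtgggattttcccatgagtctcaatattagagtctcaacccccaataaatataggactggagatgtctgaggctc
TNFSF4: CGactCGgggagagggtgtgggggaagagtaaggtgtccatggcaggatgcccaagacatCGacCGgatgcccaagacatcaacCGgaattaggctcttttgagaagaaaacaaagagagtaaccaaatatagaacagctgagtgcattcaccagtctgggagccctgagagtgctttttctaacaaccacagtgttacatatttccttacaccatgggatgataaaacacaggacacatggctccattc

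Of the 20 highest genes, 15 had an entry, with a median of 4.0 CpGs and with CEMIP2 (25), THBS1 (24) and ULBP2 (18) well above it, and of the 15 lowest, 13 had one, with a median of 11. Since those genes were picked for their values, the medians are a description. Over all genes above background with an entry, the share higher by 1 or more was 9.56% of 387 with 0 to 4 CpGs, 5.76% of 434 with 5 to 9, and between 2.84% and 3.30% in the bins from 10 CpGs upward. The share lower by 1 or more was 4.65% in the bin with the fewest CpGs and between 0.946% and 2.995% in the others. Both shares were highest in the bin with the fewest CpGs. The methylation of these promoters was not measured on these arrays.

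**Figure D2:**
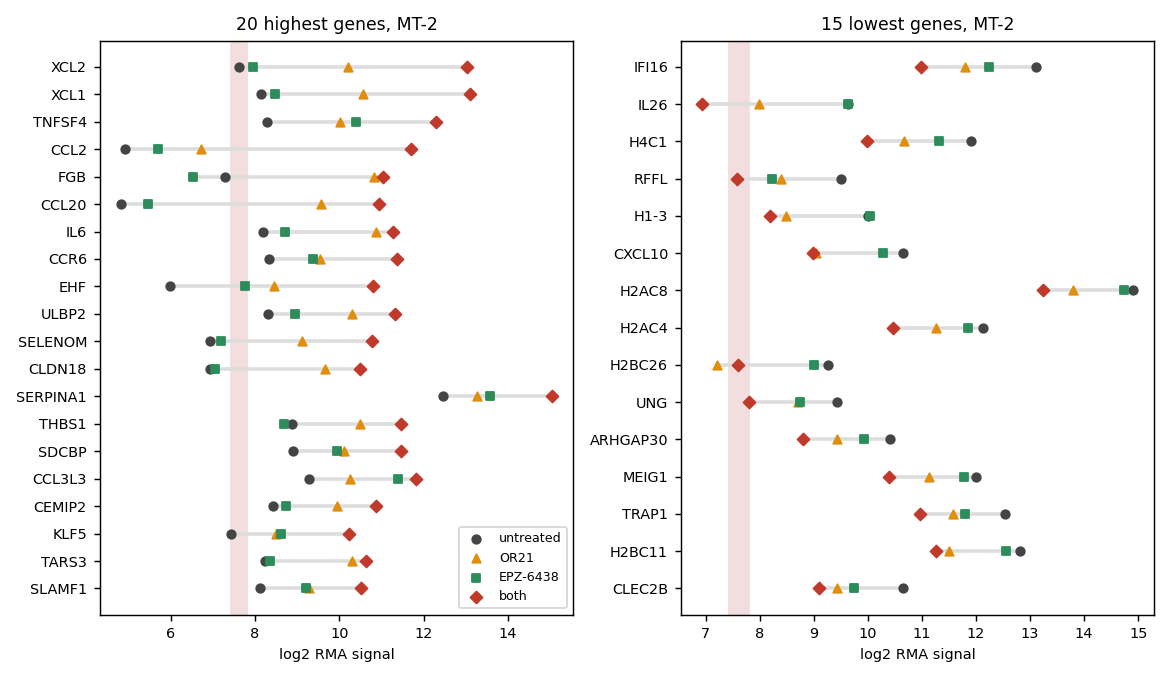
Levels on the 4 MT-2 arrays (x axis, log2 RMA signal) of the 20 highest genes (left) and the 15 lowest genes (right) by measured or bounded difference, 1 array per condition. Circles are untreated, triangles OR21, squares EPZ-6438 and diamonds both. The grey bar spans the lowest to the highest of the 4 levels, and the shaded band spans the backgrounds of the 4 arrays, 7.43 to 7.80. For CCL2 the diamond at 11.70 stands alone above the band, while for CXCL10 the triangle at 9.04 and the diamond at 8.98 nearly coincide.

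Ligands and receptors of the TNF family moved in both directions. Of 38 on the array, 17 were above background, 3 were higher by 1 or more and 2 lower, against 1.65% and 0.734% of all named probe sets. Among named probe sets above background, 3.83% were higher and 1.7% lower. TNFSF4, the costimulatory ligand OX40L, stood at 8.29 untreated, 10.03 with OR21, 10.40 with EPZ-6438 and 12.30 with both, a difference of 4.01 (16.1-fold). Its receptor TNFRSF4 (OX40) differed by 0.16. CD40, a receptor best known from antigen-presenting cells, stood at 8.38, 9.59, 9.30 and 10.37 (1.996), and EDA2R, a p53 target, at 8.16, 8.48, 8.42 and 9.21 (1.05). For TNFSF4 and CD40 each agent alone gave a level between untreated and both. TNFSF14 (LIGHT) stood at 10.32, 8.97, 9.93 and 8.998 (-1.32), and TNFSF10, the death ligand TRAIL, at 9.76, 8.68, 9.75 and 8.44 (-1.32). These 2 ligands were low on both arrays with OR21, and with EPZ-6438 alone they differed from untreated by -0.40 and -0.01. Of 26 genes of the NF-kappaB pathway and its feedback, 22 above background, ICAM1 was higher (14.68 to 15.69, 1.01) and TNIP3 lower (9.03 to 6.91, -1.39 or lower), and the list's median was -0.04.

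Ligands of NKG2D, the activating receptor by which NK cells and T cells see stressed cells, were higher as a row of neighbours. ULBP2, ULBP1, RAET1L and ULBP3 lie next to each other on chromosome 6 among the genes of the array. ULBP2 stood at 8.32 untreated, 10.29 with OR21, 8.95 with EPZ-6438 and 11.31 with both (2.99), and ULBP3 at 8.73, 10.01, 8.75 and 10.00 (1.27). ULBP1 stood at 6.97, 8.70, 7.15 and 8.96 (at least 1.15) and RAET1L at 6.28, 8.63, 7.25 and 9.45 (at least 1.64). All 4 were above background on both arrays with OR21, and for ULBP3 and ULBP1 the combination level was close to that with OR21 (10.00 against 10.01, and 8.96 against 8.70). ULBP2 and RAET1L are close copies and may share signal. Outside the row, the NKG2D ligands MICA and MICB differed by -0.34 and 0.35.

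Interferon-stimulated genes and sensors of nucleic acids were higher in part. Of 48 on the array, 23 were above background, 5 were higher by 1 or more and 0 lower, against 1.65% and 0.734% of all named probe sets. Among named probe sets above background, 3.83% were higher and 1.7% lower. The list median on deposited levels was 0.27 with both agents, 0.37 with OR21 alone and 0.10 with EPZ-6438 alone. STING1, the adaptor of cytosolic DNA sensing, stood at 10.55, 11.99, 11.11 and 12.62 (2.08). GBP2, a guanylate-binding protein, stood at 7.54, 8.52, 8.03 and 9.67 (at least 1.87). SAMD9L (1.14), IFI6 (1.13) and TRIM22 (1.06) followed, while ISG15 differed by 0.56 and the DNA sensor CGAS by -0.72. IFI16, a nuclear DNA sensor in no list here and also known to respond to interferon, stood at 13.10, 11.79, 12.25 and 10.98 (-2.12, 4.34-fold), lower with each agent and lowest with both. On deposited levels IL26 (-2.70) and TNIP3 (-2.12), both under background with both agents, had differences as low or lower.

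Antigen presentation differed by less than 1 throughout. Of 12 HLA class II genes, 11 had a difference above 0, with a median of 0.49 and 0 at 1 or more, and of 17 class I genes 13 were above 0, with a median of 0.52. HLA-DQA1 (10.99 to 11.89, 0.90) and HLA-DRB1 (9.98 to 10.84, 0.86) led the first list. The trimming protease ERAP1 (0.97), HLA-E (0.90), HLA-F (0.80), the immunoproteasome subunit PSMB9 (0.76) and the peptide transporter TAP1 (0.62) led the second. HLA genes are polymorphic and share sequence, so single values are uncertain.

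A few germ cell genes, a class that DNA methylation keeps silent in somatic cells, passed background with OR21 present. Of 60 cancer-testis and germ cell genes on the array, 12 stood above background, 4 were higher by 1 or more and 0 lower. The shares were 1.65% and 0.734% of all named probe sets, and 3.83% and 1.7% of those above background. The rest of the list stayed under background. Over all 60 genes the median difference was 0.13 with both agents, 0.38 with OR21 alone and -0.05 with EPZ-6438 alone. SSX2B, a cancer-testis antigen, stood at 5.50 untreated, 9.20 with OR21, 5.05 with EPZ-6438 and 10.13 with both (at least 2.33). GTSF1, a factor of the piRNA pathway, stood at 3.59, 8.61, 3.21 and 9.79 (at least 1.98), and SSX1 at 5.58, 8.10, 5.68 and 9.49 (at least 1.69). With EPZ-6438 alone none of the 3 passed background, and with both agents all 3 lay above OR21 alone. PAGE2, of the same list, did not, at 7.71, 8.84, 7.39 and 8.68 (at least 0.87). PRAME, an antigen already present, stood at 9.60, 10.67, 9.78 and 11.30 (1.70). SSX genes have near-identical copies. The promoters of SSX2B (chrX:52751002-52751251, plus strand) and GTSF1 (chr12:54473603-54473852, minus strand), printed with each CpG in capitals, held 7 and 8 CpGs, more than the cytokine promoters above and fewer than the median promoter.
SSX2B: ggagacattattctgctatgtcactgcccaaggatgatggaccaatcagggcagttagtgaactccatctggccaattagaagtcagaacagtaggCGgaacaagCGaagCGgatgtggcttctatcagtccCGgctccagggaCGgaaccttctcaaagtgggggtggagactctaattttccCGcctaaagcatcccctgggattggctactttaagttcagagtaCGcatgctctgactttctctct
GTSF1: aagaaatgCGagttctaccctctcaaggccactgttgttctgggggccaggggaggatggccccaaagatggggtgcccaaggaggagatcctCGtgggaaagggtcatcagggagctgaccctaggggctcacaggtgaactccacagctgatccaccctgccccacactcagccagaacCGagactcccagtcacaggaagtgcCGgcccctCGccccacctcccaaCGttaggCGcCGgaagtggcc

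The remaining genes among the 20 highest came from several classes. SERPINA1, the protease inhibitor alpha-1 antitrypsin, stood at 12.45, 13.26, 13.58 and 15.04 (2.59). FGB, the fibrinogen beta chain, stood at 7.29, 10.84, 6.54 and 11.04 (at least 3.23), with OR21 alone close to both. Both genes are best known from liver. EHF, an ETS factor of epithelia, stood at 5.99, 8.45, 7.77 and 10.80 (at least 2.99), and the zinc finger factor KLF5 at 7.43, 8.50, 8.62 and 10.22 (at least 2.42). CLDN18, a tight junction protein, stood at 6.93, 9.66, 7.06 and 10.50 (at least 2.69). Of the 44 epithelial, endothelial, fibroblast and neural markers, 10 were above background and 1 was higher by 1 or more. That was SFN (6.79 to 9.72, at least 1.91), and COL6A3 was lower (9.05 to 7.86, -1.18). Among all named probe sets, 1.65% were higher and 0.734% lower by 1 or more, and among those above background 3.83% and 1.7%. THBS1, the matrix protein thrombospondin, stood at 8.88, 10.49, 8.68 and 11.47 (2.59). SLAMF1, a costimulatory receptor of lymphocytes, stood at 8.11, 9.28, 9.20 and 10.51 (2.40), and the adaptor SDCBP (syntenin) at 8.90, 10.12, 9.94 and 11.46 (2.55). For these last 2 the single agents gave nearly equal levels, midway to the combination. CEMIP2, a cell-surface hyaluronidase, stood at 8.42, 9.94, 8.73 and 10.87 (2.45) and the selenoprotein SELENOM at 6.94, 9.10, 7.19 and 10.78 (at least 2.98).

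Genes of the cell surface and the actin skeleton were more often higher than lower, as were all named probe sets (293 against 130). Of 42 on the array, 26 were above background, 6 were higher by 1 or more and 1 lower, against 1.65% and 0.734% of all named probe sets. Among named probe sets above background, 3.83% were higher and 1.7% lower. The GTPase RHOB (10.99 to 12.73, 1.74), the hyaluronan receptor CD44 (11.08 to 12.41, 1.34), annexin ANXA2 (15.87 to 16.99, 1.12), caveolin CAV1 (1.07), the integrin chain ITGAV (1.06) and RHOC (1.05) were the higher ones. The calponin CNN2 was lower (10.72 to 9.36, -1.35). S100A10, the partner of annexin A2, stood at 12.70, 14.01, 14.01 and 15.01 (2.31), and its neighbour on chromosome 1, S100A11, at 14.01, 14.68, 14.61 and 15.25 (1.24). For both S100 genes the single agents gave nearly the same level, about midway. The other 3 of the 5 S100-list genes above background, S100A4, S100PBP and S100A6, lay between -0.53 and 0.09. Metallothioneins, which bind zinc and copper, were higher along their cluster, with 10 of 11 list members above 0 and a median of 0.78. In this list 4 were higher by 1 or more, against 3.83% of all named probe sets above background. MT1G (11.75 to 13.11, 1.35), MT1M (1.31), MT1B (1.09) and MT1X (1.04) were those 4, and their copies are close enough to share signal.

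Of 34 genes of the integrated stress response and amino acid supply, 24 were above background and 4 were higher by 1 or more. Over all named probe sets above background, the share higher was 3.83%. CBS, which makes cystathionine from homocysteine, stood at 7.996, 9.17, 7.90 and 10.30 (2.30), and a second probe set for it gave 1.51. STC2 stood at 7.90, 9.35, 8.10 and 9.74 (1.85), the glutathione-degrading enzyme CHAC1 at 7.72, 8.74, 8.46 and 9.06 (at least 1.26) and asparagine synthetase ASNS at 10.47, 11.32, 10.89 and 11.57 (1.10). TARS3, a threonyl-tRNA synthetase in no list, stood at 8.23, 10.30, 8.35 and 10.64 (2.41). XBP1, the transcription factor of the unfolded protein response, stood at 8.74, 9.81, 9.47 and 10.38 (1.65), the 1 member of 19 in the list of chaperones of the endoplasmic reticulum at 1 or more (median 0.40). In the heat shock and oxidative stress list, 0 of 24 genes reached 1 and the median was 0.29, or -0.15 with weaker levels raised to the background. Of 30 ERK phosphatases, Sprouty proteins and immediate-early factors, 17 above background, DUSP5, which inactivates ERK, stood at 9.91, 11.59, 11.06 and 12.09 (2.18), SPRED2 differed by 1.22 and the AP-1 subunit JUND by -1.14.

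Targets of p53 and genes of the cell cycle and cell death mostly differed by less than 1. Of 25 p53 targets, 22 above background, 4 were higher by 1 or more and 0 lower, against 1.65% and 0.734% of all named probe sets. Among named probe sets above background, 3.83% were higher and 1.7% lower. In the p53 list 19 lay above 0 and the median was 0.38 with both agents, 0.45 with OR21 alone and 0.05 with EPZ-6438 alone. SESN1 (8.18 to 9.76, 1.58), ZMAT3 (9.10 to 10.60, 1.51), EDA2R, given above, and MDM2 (12.06 to 13.08, 1.02) were those 4. CDKN1A, the cell cycle inhibitor p21, stood at 12.41, 12.96, 12.85 and 13.19 (0.78). CDKN2A, which encodes p16, stood at 8.17, 8.13, 8.96 and 9.47 (1.30), higher on both arrays with EPZ-6438 and level with untreated under OR21 alone. It was the 1 gene at 1 or more among 24 CDK inhibitors, cyclins and partners, where MYC differed by -0.95. Of 27 genes reported silenced in T cell leukaemia, 16 above background, DUSP5 and CDKN2A were higher by 1 or more and BCL2L11 lower. BCL2L11, the pro-apoptotic BIM, stood at 9.15, 8.78, 8.79 and 8.04 (-1.11), and was also the 1 such gene among 19 of the BCL2 family.

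**Figure D3:**
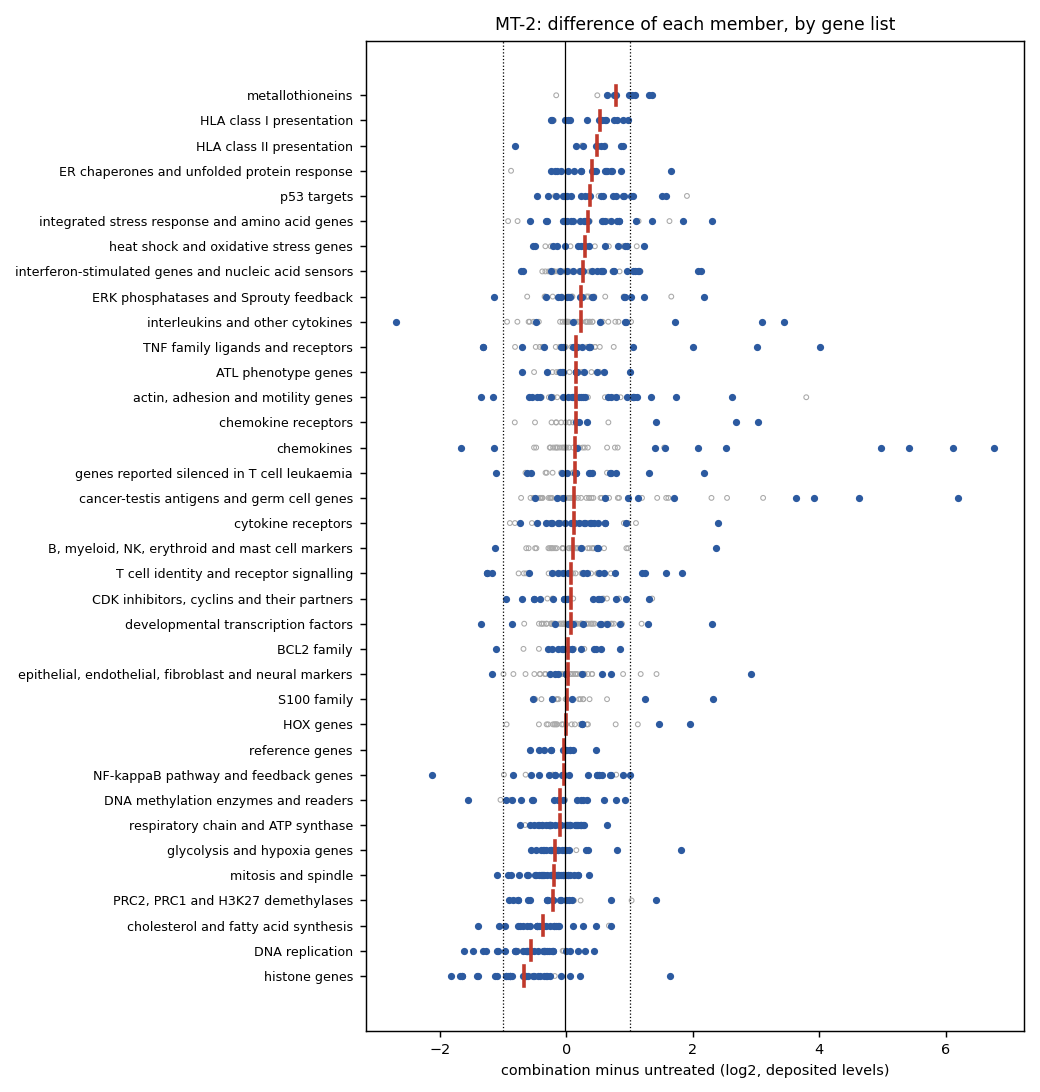
Difference between the combination and the untreated MT-2 array (x axis, log2, deposited levels) for every member of the 36 gene lists (rows). Filled points are members with a measured difference or a bound, and open points those with neither. Red bars are list medians over all members and dotted lines mark a difference of 1 in each direction. Metallothioneins lie at the top with a median of 0.78, and DNA replication (-0.57) and histone genes (-0.66) at the bottom, while the point farthest to the right is the chemokine CCL2 (6.77), followed by GTSF1 (6.199) of the cancer-testis list.

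On the lower side, histone genes were many. Replication-dependent histone genes make the core and linker histones of S phase and lie in clusters on chromosomes 6 and 1. Of the 34 genes in the histone list, 31 were above background, 8 were lower by 1 or more and 1 higher, and 31 lay below 0 with a median of -0.66. Over all named probe sets above background, 1.7% were lower and 3.83% higher by 1 or more. A wider set of 61 replication-dependent histone symbols, drawn after the values were seen, had 46 above background, 18 lower and 1 higher by 1 or more, 55 below 0 and a median of -0.76. H4C1 stood at 11.90 untreated, 10.67 with OR21, 11.32 with EPZ-6438 and 9.98 with both (-1.92). H2AC8 stood at 14.90, 13.79, 14.74 and 13.25 (-1.65) and H2AC4 at 12.13, 11.27, 11.85 and 10.47 (-1.65). All 3 were lowest with both agents, next lowest with OR21 and nearest to untreated with EPZ-6438. The linker histone H1-3 stood at 10.01, 8.50, 10.04 and 8.19 (-1.82), H2BC11 at 12.82, 11.50, 12.56 and 11.25 (-1.57), H2BC6 at 10.24, 9.498, 9.88 and 8.84 (-1.40), and H2BC26 at 9.27, 7.22, 9.01 and 7.59 (-1.63 or lower). The median over the 61 symbols was -0.56 with OR21 alone and -0.16 with EPZ-6438 alone. H1-1, a linker histone at the edge of background, was the exception, at 7.48, 8.82, 6.66 and 9.12 (at least 1.32). Their coding sequences are near-identical within a class. The histone variants H2AX, H2AZ1 and H3-3B differed by -0.35, -0.30 and 0.21.

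Promoters of 5 of these genes are printed as examples, chosen after the matches were seen, of sequence elements known from S-phase histone promoters. Capitals mark the octamer ATTTGCAT, the CCAAT box and the TATA box (TATAAA), each searched on both strands, and adjoining or overlapping matches run together in capitals. The octamer occurred in 38.6% of the 57 histone promoters with an entry, against 1.59% of all promoters of this length and 8.74% of the genes lower by 1 or more. The CCAAT box occurred in 82.5%, 34.6% and 54.4% of these sets, and TATAAA in 68.4%, 8.99% and 15.5%. Without the histone genes, the lower genes held them in 3.49% (octamer), 47.7% (CCAAT) and 5.81% (TATAAA). A match is only a match of letters, and it was accepted at any position of the stretch. In H2BC6 the marked TATAAA lies far from the start, and in H2AC8 it lies far from it and on the other strand. The TATAAA shares are therefore not shares of placed TATA boxes. Of the printed stretches that of H1-3 held no octamer, and the promoter of H2BC26, not printed, held neither octamer nor TATAAA. The stretches are those of H2BC11 (chr6:27132796-27133045, minus strand), H2BC6 (chr6:26183511-26183760, plus strand), H2AC4 (chr6:26033619-26033868, minus strand), H2AC8 (chr6:26216671-26216920, plus strand) and H1-3 (chr6:26234988-26235237, minus strand).
H2BC11: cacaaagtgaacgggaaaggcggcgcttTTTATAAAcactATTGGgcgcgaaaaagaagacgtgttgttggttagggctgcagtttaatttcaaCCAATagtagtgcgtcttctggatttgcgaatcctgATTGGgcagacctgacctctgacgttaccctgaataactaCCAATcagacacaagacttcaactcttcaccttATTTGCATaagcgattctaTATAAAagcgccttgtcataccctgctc
H2BC6: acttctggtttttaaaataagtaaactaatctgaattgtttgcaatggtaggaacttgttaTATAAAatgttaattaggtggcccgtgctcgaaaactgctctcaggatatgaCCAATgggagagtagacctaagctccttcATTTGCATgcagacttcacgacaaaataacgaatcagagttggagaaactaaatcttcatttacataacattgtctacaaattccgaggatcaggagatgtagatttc
H2AC4: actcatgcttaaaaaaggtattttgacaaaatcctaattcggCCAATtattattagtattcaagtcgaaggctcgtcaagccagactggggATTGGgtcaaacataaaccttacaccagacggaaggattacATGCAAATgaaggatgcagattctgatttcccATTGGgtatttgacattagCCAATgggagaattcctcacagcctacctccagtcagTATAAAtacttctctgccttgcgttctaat
H2AC8: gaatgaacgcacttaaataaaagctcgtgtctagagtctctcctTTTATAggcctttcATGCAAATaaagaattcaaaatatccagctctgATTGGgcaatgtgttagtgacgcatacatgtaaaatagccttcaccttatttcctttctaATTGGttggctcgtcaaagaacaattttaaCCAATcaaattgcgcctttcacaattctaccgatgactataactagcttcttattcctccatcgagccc
H1-3: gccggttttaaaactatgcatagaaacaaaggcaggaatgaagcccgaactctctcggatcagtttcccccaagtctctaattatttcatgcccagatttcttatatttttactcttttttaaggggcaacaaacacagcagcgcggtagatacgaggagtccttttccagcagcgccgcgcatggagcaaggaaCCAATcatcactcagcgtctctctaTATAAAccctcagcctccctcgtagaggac

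The DNA replication machinery was lower as well. Of 37 genes, 33 stood above background, and 5 were lower by 1 or more and 0 higher, against 1.7% and 3.83% of all named probe sets above background. In the list 33 genes lay below 0 with a median of -0.57, against -0.37 with OR21 alone and -0.08 with EPZ-6438 alone. UNG, which removes uracil from DNA, stood at 9.43, 8.71, 8.75 and 7.81 (-1.62). The helicase subunits MCM2 (10.37, 9.83, 10.05 and 9.06, -1.31) and MCM6 (11.14, 10.00, 10.91 and 9.86, -1.28), the primase PRIM1 (11.55 to 10.45, -1.10) and CDC45 (10.85 to 9.77, -1.08) were the others. The ribonucleotide reductase subunit RRM2 was among the 4 genes of the list above 0. Of 34 mitotic and spindle genes, 1 was lower by 1 or more, the checkpoint kinase BUB1 (12.05 to 10.96, -1.09), and the median was -0.20. The replication list thus lay further below 0 than the mitotic list.

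**Figure D4:**
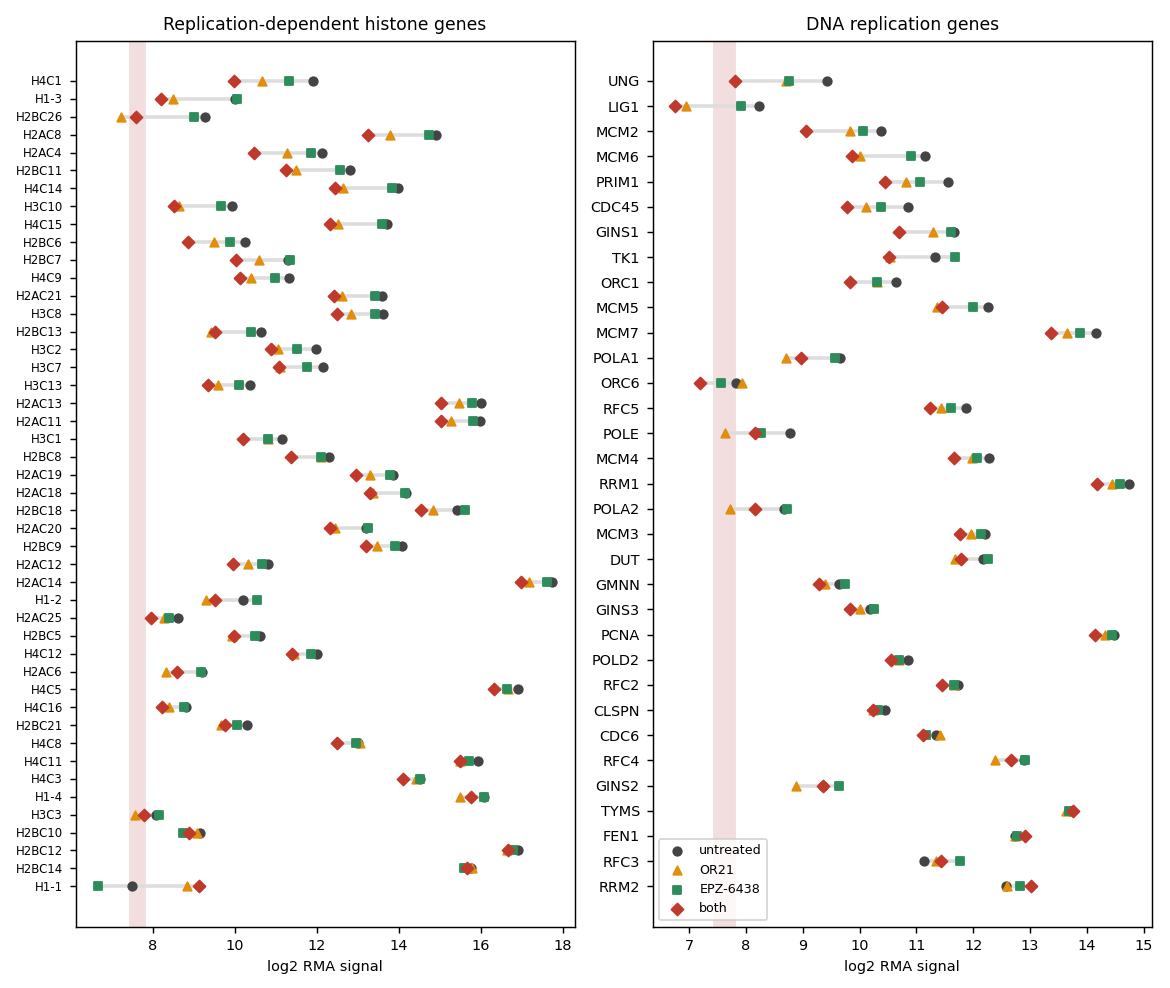
Levels on the 4 MT-2 arrays (x axis, log2 RMA signal) of replication-dependent histone genes (left) and DNA replication genes (right), 1 array per condition, ordered by difference. Genes shown are those with a measured difference or a bound between the untreated and the combination array. Circles are untreated, triangles OR21, squares EPZ-6438 and diamonds both, and the shaded band spans the backgrounds of the 4 arrays. In most rows the diamond is leftmost with the triangle near it and the square near the circle, as for H2AC8 (13.25, 13.79, 14.74 and 14.90), and H1-1 is reversed.

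The machinery that the agents address differed by small to moderate amounts. EZH2 stood at 12.36 untreated, 12.25 with OR21, 12.35 with EPZ-6438 and 12.06 with both (-0.29). Its PRC2 partners SUZ12 (10.44 to 9.59, -0.85) and RBBP4 (-0.76) were lower by less than 1. PHC1, a subunit of PRC1, stood at 7.81, 8.65, 8.72 and 9.23 (1.42), the 1 gene of 23 in the Polycomb list at 1 or more. UHRF1, which brings DNMT1 to newly copied DNA, stood at 12.16, 11.55, 11.60 and 10.61 (-1.55), the 1 gene of 20 in the DNA methylation list at -1 or less. DNMT1 stood at 10.58, 10.10, 10.24 and 9.71 (-0.86), the remodeller HELLS at 10.74, 10.67, 10.92 and 9.79 (-0.95) and DNMT3A at 8.51, 9.35, 9.18 and 9.30 (0.79). UHRF1 and DNMT1 were lower with each agent and lowest with both, whereas HELLS was low on the combination array and near untreated on the single-agent arrays.

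Of 26 genes of cholesterol and fatty acid synthesis, 25 were above background, 2 were lower by 1 or more and 21 lay below 0, with a median of -0.37. Over all named probe sets above background, the share lower was 1.7%. HMGCS1, an early enzyme of the sterol pathway, stood at 15.98, 15.34, 15.40 and 14.58 (-1.40), and acetyl-CoA carboxylase ACACA at 11.06, 9.98, 10.72 and 10.00 (-1.06). Mevalonate kinase MVK differed by -0.97 and ATP citrate lyase ACLY by -0.76. The respiratory chain list had 0 of 34 genes at 1 or more in either direction and a median of -0.10. Among 28 glycolysis and hypoxia genes the median was -0.18, and the hypoxia factor EPAS1 was the 1 gene at 1 or more (9.48, 9.56, 10.36 and 11.30, 1.82). VEGFA differed by 0.80.

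T cell genes were mixed. Of 41 genes of T cell identity and receptor signalling, 17 were above background, 3 were higher by 1 or more and 3 lower. All named probe sets had 1.65% higher and 0.734% lower, and those above background 3.83% and 1.7%. CD5, an inhibitory co-receptor, stood at 10.64, 10.78, 11.44 and 12.22 (1.58), and the transcription factor LEF1 at 9.84, 9.82, 10.77 and 11.08 (1.24). Both were level with untreated under OR21 alone and higher on the arrays with EPZ-6438. UBASH3A, which restrains receptor signals, stood at 9.37, 10.15, 9.28 and 10.57 (1.20), with the opposite order of the single agents. The adaptor LCP2 (SLP-76; 11.96, 10.93, 11.52 and 10.70, -1.26), the receptor zeta chain CD247 (9.74, 9.12, 9.92 and 8.48, -1.25) and the Th1 factor TBX21 (10.40 to 9.22, -1.18) were lower. Of 23 ATL phenotype genes, ICAM1 was the 1 at 1 or more. CD4 differed by 0.59 and IRF4 by -0.30. In the list of 41 markers of other blood cells, 6 were above background and 1 was lower by 1 or more, the B cell kinase BLK (11.09, 10.34, 10.34 and 9.96, -1.13).

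Polycomb is best known for silencing developmental regulators, and few of them were above background here. Of 23 HOX genes, 4 were above background, and HOXC8 passed it on the combination array alone at 8.83 from 6.87 (at least 1.03), with 7.38 under OR21 and 7.34 under EPZ-6438. Of 67 developmental transcription factors, 13 were above background, 1 was higher by 1 or more and 1 lower. These counts were near the shares over all named probe sets, 1.65% and 0.734%. Over those above background the shares were 3.83% and 1.7%. GATA4, a factor of heart and endoderm, stood at 11.82, 12.08, 12.17 and 13.11 (1.30), and SOX11 stood at 8.72 untreated and under background at 7.37 with both (-1.09 or lower). Both lists had medians near 0 (-0.00 and 0.07). The 13 reference genes had a median of -0.04 and 0 at 1 or more in either direction, with POLR2A at 0.48 and SDHA at -0.58 as the ends of their range.

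The remaining genes among the 15 lowest had no common class. RFFL, a ubiquitin ligase, stood at 9.51, 8.395, 8.23 and 7.57 (-1.87 or lower), and ARHGAP30, a GTPase-activating protein, at 10.41, 9.43, 9.94 and 8.79 (-1.62). MEIG1, known from spermatogenesis, stood at 12.004, 11.13, 11.77 and 10.39 (-1.62), TRAP1, a mitochondrial chaperone, at 12.54, 11.57, 11.80 and 10.96 (-1.58), and CLEC2B, a lectin-like surface protein, at 10.65, 9.43, 9.75 and 9.09 (-1.56). Each agent alone lay between untreated and both for these 5 genes.

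How the combination relates to the single agents was read side by side, since all 3 treated arrays share 1 untreated array. For the 293 higher probe sets the median difference was 1.34 with both, 0.65 with OR21 and 0.49 with EPZ-6438, and for the 130 lower ones -1.18, -0.78 and -0.40. They were chosen on the combination array, so the larger value there is fixed in part by the choice. Over the 6769 probe sets above background on all 4 arrays, the combination minus both single-agent differences, called the excess, had a median of 0.09 and 5th and 95th percentiles of -0.49 and 0.71. It was 1 or more for 72 probe sets and -1 or less for 22. The 72 were 45 after quantile normalization and 387 without a background filter. XCL1 led with 2.22. The next 5 were IGSF8 (1.79), PDK2 (1.78), OGFRL1 (1.64), GOSR2 (1.58) and CTBS (1.51). Unlike XCL1, IGSF8, PDK2, OGFRL1 and GOSR2 had combination differences of 0.11 to 0.53 and were lower with OR21 alone, so their excess lay mostly in the single-agent levels. At the other end PDZD4 (-1.81) and MRPL38 (-1.73) were high with OR21 alone (11.01 from 9.72, and 10.29 from 9.25) and below untreated with both, while SDCCAG8 had -1.34 and ODF2L -1.36. TNFSF4 had an excess of 0.15, IL6 of -0.13 and IFI16 of 0.05, so their combination levels lay near the sum of the single-agent differences on the log2 scale. Higher by 1 or more and above background on the combination array alone of the 4 were 3 genes, CCL2, CKAP4 and HOXC8. Under background there alone, and lower by 1 or more, were 8, among them IL26, RFFL, TNIP3 and SOX11.

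MT-1 cells given both compounds, at higher concentrations, had more differences, with 725 probe sets higher by 1 or more (4.09%) and 919 lower (5.19%). Higher in both lines were 65, which is 22.2% of the MT-2 list and 8.97% of the MT-1 list, and lower in both were 34, 26.2% and 3.70%. Among the 293 MT-2 probe sets, 82 had neither a measured difference nor a bound in MT-1, 137 differed there by less than 1 and 9 were lower by 1 or more. The chemokine group was mostly without MT-1 signal. XCL1, XCL2, CCL2, CCL20, TNFSF4, IL6, CCR6 and SERPINA1 were not above background on either MT-1 array. CCL3 reached 10.90 in MT-1 from 5.30 (at least 3.45). SSX2B (at least 8.02 in MT-1), ULBP2 (2.32), S100A10 (at least 4.79), DUSP5 (at least 3.23), STING1 (at least 2.90), IL6ST (2.06), SFN (3.53) and CHI3L2 (at least 2.79, against at least 2.29 in MT-2) were higher in both. RNF19B was also higher there (2.67). H2BC26 (-3.16), TRAP1 (-2.52) and ARHGAP30 (-1.58) were lower in MT-1 too. The histone list had an MT-1 median of -0.27, the replication list -0.37 and the p53 list 0.23. The median was -0.83 in MT-1 against 0.35 in MT-2 for the integrated stress response, -0.28 against 0.40 for the endoplasmic reticulum, and 0.41 against 0.29 for the heat shock and oxidative stress list. Doses, line and arrays differ together, and the differences between the lines were not tested.

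**Figure D5:**
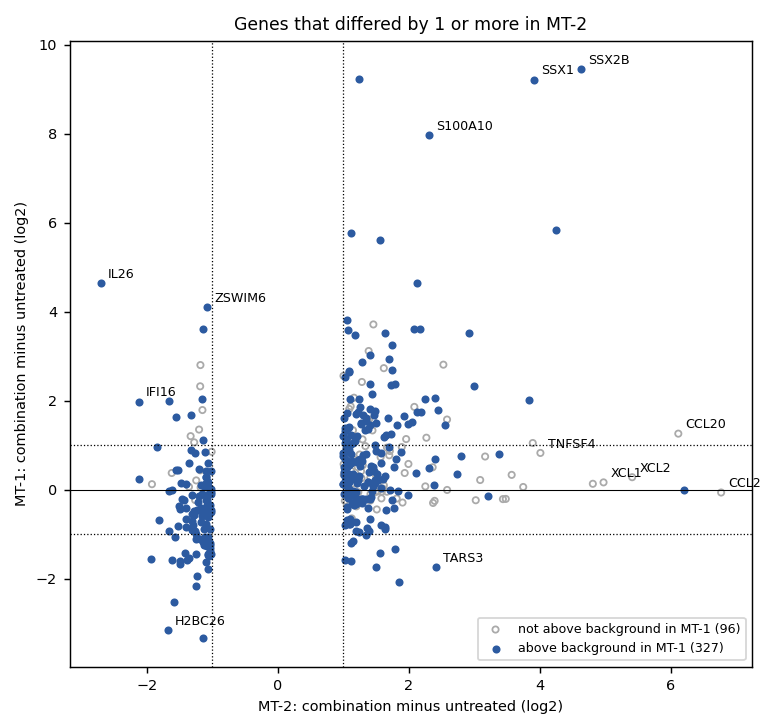
Difference between the combination and untreated arrays in MT-2 (x axis, log2) and in MT-1 (y axis, log2), on deposited levels, for the 423 probe sets that differed by 1 or more in MT-2. Filled points have a measured difference or a bound in MT-1 (327) and open points have neither (96), and dotted lines mark 1 in each direction. At the right XCL1, XCL2 and CCL2 lie near 0 in MT-1 and CCL20 at 1.26, SSX1, SSX2B and S100A10 are high in both lines, and IL26 and IFI16 are low in MT-2 and high in MT-1.

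Positions along the chromosomes were taken from RefSeq gene order for 17245 genes. Among 289 higher genes with a position, 20 lay in 9 runs of neighbours, and among 129 lower genes 4 lay in 2 runs. How many runs as many randomly placed genes would form was not computed, so a single pair carries little weight. Beside the ULBP row, the pairs of XCL, CCL3, S100 and metallothionein genes named above were such runs. So were the epidermal envelope genes LCE1C and LCE1B (1.64 and at least 1.09), TRIM43B and TRIM43 (1.46 and 1.41), TMEM54 and RNF19B (1.12 and 1.08), and PIGT and WFDC2 (1.05 and 1.41). The lower runs were of histone genes, H3C13 with H4C14 and H3C2 with H2AC4. Most runs join paralogs, which can share probe sequence. By chromosome, chromosome 6 held 13.1% of the lower genes against 5.75% of those above background, and 13 of the 18 lower replication-dependent histone genes lay there. Chromosome 19 held 1.71% of the higher and 10.0% of the lower genes, against 5.92% of those above background.

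Near the threshold, NECAP1 (1.0006) and CALCOCO2 (1.0002) were just inside on the higher side and TUBE1 (0.999) and NQO1 (at least 0.996) just outside. On the lower side NEGR1 and H3C13 (both -1.01) were just inside and TFDP2 and B3GALT6 (both -0.99) just outside.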

How the data were processed

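The deposited values are log2 signals that the authors made with RMA for the 8 arrays, per the submitters' processing notes. The log base is inferred from RMA, and the array build and annotation release are not named in any source used here. RMA draws arrays to a common distribution, so differences are relative to the other genes. Of 24351 rows, 2903 controls and 3739 transcripts without a symbol in the platform annotation were set aside. The 20 symbols with several probe sets are given by the probe set with the highest mean. Levels, backgrounds, bounds and counts were computed with Python 3.11.15 and pandas 2.3.3, with no test. Precision is limited by the number of arrays. The genes named were the 20 highest, the 15 lowest, up to 5 per list, the 6 highest and 4 lowest by excess, neighbours, and genes at the threshold of 1, with others added for context after their values were seen. The comparison, the 36 lists and these rules were chosen with earlier results of these data known. Alternatives were centring, quantile normalization, cyclic loess (limma 3.58.1, R 4.3.3), background rules and thresholds. The counting was tested on simulated data, with shifts above the threshold in probe sets well above background and less scatter than between these arrays. It therefore does not show how counts near the threshold or near background behave.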

Additional observations from a re-analysis of the deposited data

Results flagged for a closer look

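Several genes had differences of opposite sign in the lines, 1 or more in each, with both agents. These differences between the lines were not tested, rest on 1 array per condition, and come with different doses. IFI16 differed by -2.12 in MT-2 and 1.98 in MT-1, CXCL10 by -1.66 and 2.001, and IL26 by -2.004 or lower and at least 2.31. CLEC2B differed by -1.56 in MT-2 and 1.64 in MT-1, TNFSF10 by -1.32 and at least 1.61, JUND by -1.14 and 1.13, and BLK by -1.13 and at least 2.87. In the other direction TARS3 differed by 2.41 in MT-2 and -1.74 in MT-1, STC2 by 1.85 and -2.07, CHAC1 by at least 1.26 and -1.03, and TMEM54 by 1.12 and -1.61.

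The comparison left out 3739 transcript probe sets without a gene symbol, of which 1127 stood above background on either MT-2 array. Of these, 27 were higher by 1 or more and 33 lower. The highest, TC1200011567.hg.1, stood at 7.10 untreated, 9.42 with OR21, 7.80 with EPZ-6438 and 10.81 with both, a difference of at least 3.01.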

How the results depend on the processing

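Counts depended on the treatment of weak signals. On deposited levels 657 probe sets were higher and 234 lower by 1 or more. They were 437 and 151 where the higher level had to pass background, 220 and 111 where it had to pass the 99th percentile of the negative controls, and 293 and 130 where weaker levels were raised to the background. A threshold of 1.5-fold gave 1956 and 1580, and one of 2 log2 units gave 90 and 3. Median centring (569 and 313), quantile normalization (667 and 274), cyclic loess (697 and 208) and inclusion of unnamed transcripts (746 and 329) stayed within 1.5 times. The excess of 1 or more, 72 probe sets, was 45 after quantile normalization and 387 without a background filter. The 65 probe sets higher in both lines were 211 on deposited levels. All 223 named genes kept their direction under the 3 scalings, and so did the list medians but for those of the BCL2, S100 and epithelial lists (centring) and the HOX list (loess), which lie near 0. With weaker levels raised to the background, 16 list medians above 0 became -0.17, which is the difference between the backgrounds and no measured fall. They are those of the cancer-testis, chemokine, chemokine receptor, interleukin, cytokine receptor, TNF family, interferon, CDK, ATL, T cell, other blood cell, epithelial, S100, developmental, silenced and actin lists. The heat shock (-0.15), ERK (-0.16) and BCL2 (-0.064) lists also turned negative, and the integrated stress list was 0.093. No paired analysis was possible because each group has 1 array. No replicate could be left out for the same reason.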
